A study of Rattus norvegicus with 4 samples.

Results

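Sphingolipids are membrane lipids built on ceramide, and the genes described here encode the enzymes and regulators that make, modify and break them down. The list held 43 genes chosen by name for the metabolism of ceramide, galactolipids, sphingomyelin, gangliosides and sphingosine-1-phosphate. Of these, 42 matched a gene name among the 32545 genes of the deposited count table, and 39 had enough counts to be tested. Degs2, St8sia1 and Sptlc3 had 0 counts in all 4 libraries, and 3 counts, the limit that a count of 0 allows, correspond to between 0.0685 and 0.141 CPM depending on the library. Cers1 was not analysed here. Polyadenylated RNA came from S16 cells, an immortalised rat Schwann cell line, transfected with siRNAs against both Nr2f1 and Nr2f2 in 2 libraries or with a control siRNA, IDT DS NC1, in 2 libraries. COUP-TFI and COUP-TFII, the products of Nr2f1 and Nr2f2, are nuclear receptors without a known natural ligand. Both were lowered together, with 1 siRNA sequence each per the labels, so their separate parts cannot be told apart, and no label gives the time between transfection and lysis. No label ties the libraries to separate cultures, and the p-values rest on a spread that may be only technical.

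Within a group, A is the library that the count table lists first and B the other. Counts summed to 25618234 and 43057750 in siRNA libraries (A, then B), against 26561522 and 21556011 in control libraries (A, then B). Levels are CPM, each library's depth being scaled by the trimmed mean of M values (TMM-scaled CPM), which compare 1 gene between libraries; levels of different genes are compared only as CPM per kilobase of gene length. Adjusted p-values are from the quasi-likelihood test of edgeR with Benjamini-Hochberg adjustment over all 13018 tested genes, and a gene is called higher or lower in the siRNA libraries where its adjusted p is under 0.05. Nr2f1 was at 61.5 and 56.0 CPM in the siRNA libraries against 225.5 and 208.2 CPM in the control libraries, and Nr2f2 at 68.1 and 72.7 CPM in the siRNA libraries against 295.7 and 281.9 CPM in the control libraries. Of 10 Schwann cell markers 9 were measured, with Sox10 at 760.0 and 686.4 CPM in siRNA and 689.8 and 713.4 CPM in control libraries, while Gap43 had 0 counts in every library. The summed level of these markers was 15788 to 16472 CPM in siRNA and 14117 to 14628 CPM in control libraries, and among them Pmp22 rose. Of 5 macrophage markers Ptprc and Adgre1 had 0 counts, and the list summed to 1.64 and 1.65 CPM in siRNA and 1.55 and 1.83 CPM in control libraries. Of 3 endothelial markers matched by gene name, Cdh5 and Kdr had 0 counts. The 3 summed to at most 4.48 CPM in siRNA and 6.10 CPM in control libraries. Pecam1, also chosen as an endothelial marker, matched no gene name and was not analysed. The neuron list was nearly all Tubb3, which rose, with Rbfox3 at 0, and summed to 88.6 to 106.6 CPM in siRNA and 76.7 to 80.5 CPM in control libraries. The 4 oligodendrocyte markers, mostly Mog, summed to 42.5 and 43.3 CPM in siRNA and 34.9 and 37.4 CPM in control libraries. Of 6 fibroblast markers Dcn and Lum had 0 counts and Postn rose, while Col1a1 held most of a sum of 13327 to 13413 CPM in siRNA and 13097 to 13507 CPM in control libraries. The part of these markers in the results below was not tested.

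In Schwann cells the sphingolipid pathway starts with serine palmitoyltransferase in the endoplasmic reticulum and leads to ceramide, from which sphingomyelin, galactosylceramide and glucosylceramide branch off. Galactosylceramide and its sulfated form, sulfatide, are the characteristic glycolipids of myelin, and many of their acyl chains carry a hydroxyl group added by FA2H. Lysosomal hydrolases with their saposin cofactors take the lipids apart again, and loss of several of them causes leukodystrophies or other storage diseases in humans. The comparison asks whether the transcripts of these steps differ when COUP-TFI and COUP-TFII are lowered.

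Among the 39 tested sphingolipid genes 12 rose and 4 fell, and the other 23 missed the threshold. In bulk RNA, fewer cells that express a gene and less RNA per cell cannot be told apart. The called genes were 41.0% of the list, against 18.1% of all tested genes (8.05% higher and 10.0% lower). Over all 39 tested sphingolipid genes, called or not, the median log2 fold change was 0.13, against 0.01 over all tested genes. Among genes with a mean of more than 10 and up to 100 CPM, 7 of 16 sphingolipid genes passed, against 20.4% of all genes at that level; above 100 CPM it was 6 of 15 against 27.3%, and up to 10 CPM 3 of 8 against 9.41%. Fa2h, B4galt5, Gal3st1 and Sphk1 rose, and Sgms2 fell, in all of 12 alternative analyses. The other 11 calls were each lost in at least 1 of them, and no sphingolipid gene changed direction while called. Without siRNA library B, the most deeply sequenced, 4 were higher and 1 lower, which is 12.8% of them, close to the 10.1% of all genes called in that fit. Without control library A 7 were higher and 1 lower (20.5%, against 11.5% of all genes). Without control library B 7 were higher and 4 lower (28.2%, against 13.5%), and without siRNA library A 9 were higher and 2 lower (28.2%, against 12.6%). Scaled by library size alone, 13 were higher and 2 lower, and 57.8% of all called genes were higher in place of 44.6%. In the authors' deposited table, at an adjusted p under 0.05, 10 of these genes were higher and 3 lower, where 11.3% of the genes listed there passed; these 13 were all among the 16 called here. The 3 that did not pass in the authors' deposited table were Sptlc1 (adjusted p = 0.0614), Smpd3 (0.174) and B4galnt1 (0.155).

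**Figure D1:**
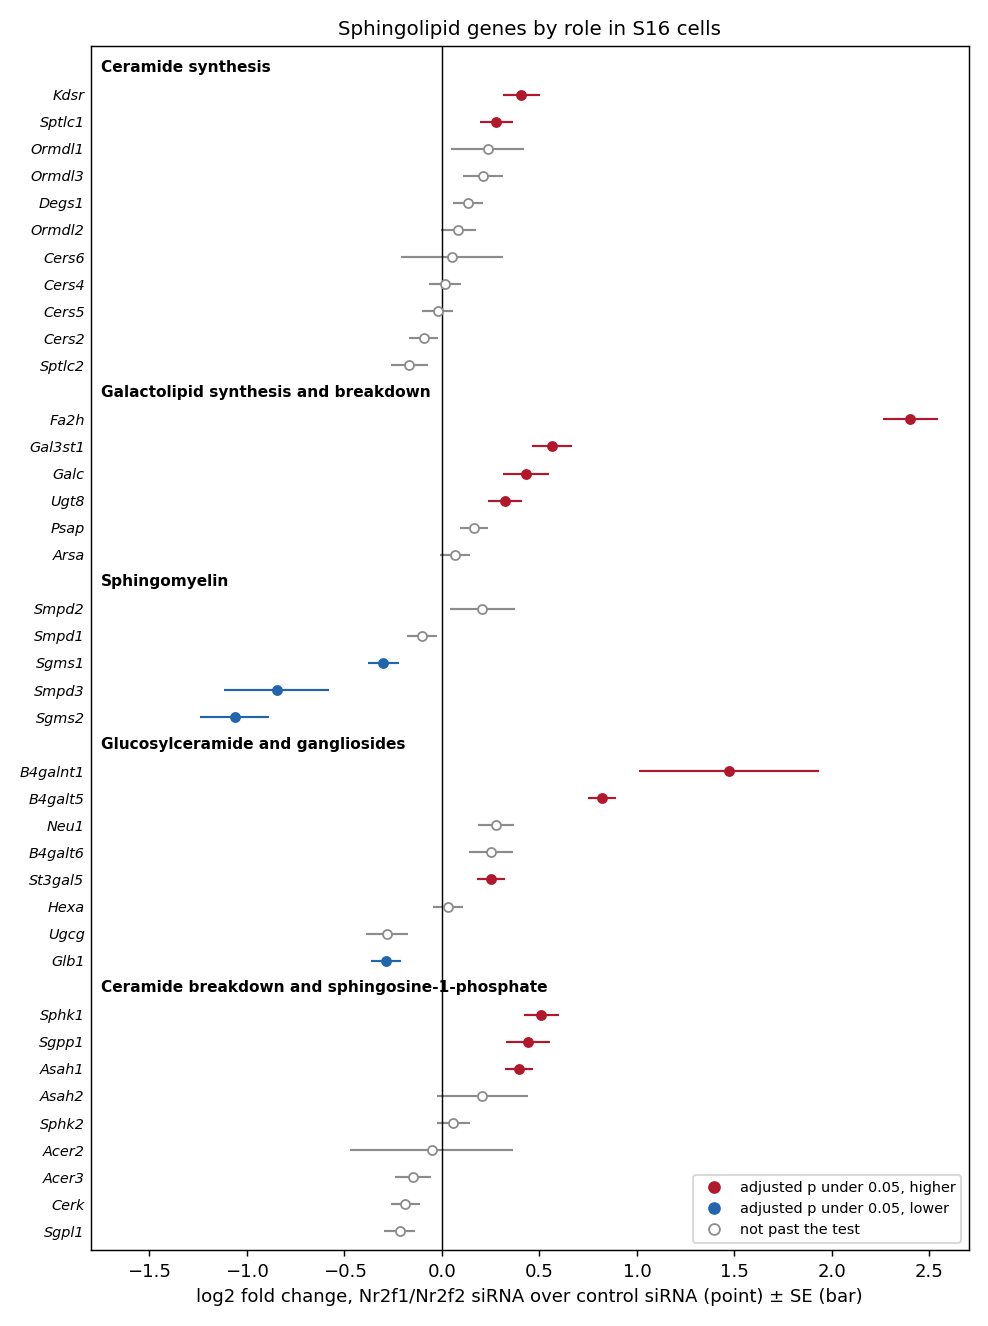
Log2 fold change of each tested sphingolipid gene, siRNA over control (horizontal axis), grouped by role, with bars of 1 SE; filled points passed the test (red higher, blue lower) and open points did not. Fa2h lies far to the right at 2.40, the galactolipid genes all lie above 0, and of the 5 sphingomyelin genes only Smpd2 does.

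The myelin galactolipid genes held the largest log2 fold change of the list, that of Fa2h. Fa2h, Ugt8 and Gal3st1, which act one after another on the way to hydroxylated sulfatide, all rose, and so did Galc. That makes 4 of 6 tested genes, against 8.05% of all tested genes called higher. With an unadjusted p under 0.05 it was 5 of 6, against 4087 of all 13018 tested genes in either direction. Because Fa2h, Ugt8 and Gal3st1 rose and Sgms2 fell, their start regions are shown, read from RefSeq on build GRCr8 with 250 bases before and 50 bases after the annotated start. Each is printed in the direction of transcription with 5 searched motifs in capitals. The windows are chr19:56273431-56273730 on the minus strand for Fa2h, chr2:217007118-217007417 on the minus strand for Ugt8, chr14:83094135-83094434 on the plus strand for Gal3st1 and chr2:222590758-222591057 on the minus strand for Sgms2.
Fa2h: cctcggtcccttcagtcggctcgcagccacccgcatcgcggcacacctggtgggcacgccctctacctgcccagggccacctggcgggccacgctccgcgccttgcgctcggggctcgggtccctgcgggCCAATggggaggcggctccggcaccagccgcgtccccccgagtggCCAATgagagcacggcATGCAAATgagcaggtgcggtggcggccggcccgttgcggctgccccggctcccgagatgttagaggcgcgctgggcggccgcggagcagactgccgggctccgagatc
Ugt8: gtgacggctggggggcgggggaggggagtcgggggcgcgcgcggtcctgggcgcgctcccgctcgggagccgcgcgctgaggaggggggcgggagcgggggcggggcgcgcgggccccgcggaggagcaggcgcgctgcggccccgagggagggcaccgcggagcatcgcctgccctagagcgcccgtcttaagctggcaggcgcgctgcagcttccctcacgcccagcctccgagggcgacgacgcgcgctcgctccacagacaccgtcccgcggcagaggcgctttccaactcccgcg
Gal3st1: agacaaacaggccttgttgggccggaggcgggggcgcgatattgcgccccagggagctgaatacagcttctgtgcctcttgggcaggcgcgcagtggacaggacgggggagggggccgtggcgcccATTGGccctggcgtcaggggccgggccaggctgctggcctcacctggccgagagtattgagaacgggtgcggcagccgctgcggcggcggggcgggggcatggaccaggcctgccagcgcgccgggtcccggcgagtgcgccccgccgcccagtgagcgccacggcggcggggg
Sgms2: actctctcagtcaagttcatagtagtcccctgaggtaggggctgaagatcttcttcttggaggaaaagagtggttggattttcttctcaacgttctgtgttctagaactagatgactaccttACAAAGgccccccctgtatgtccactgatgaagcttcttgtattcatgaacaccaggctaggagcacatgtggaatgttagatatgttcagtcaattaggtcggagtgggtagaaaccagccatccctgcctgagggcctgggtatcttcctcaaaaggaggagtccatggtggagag

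The motifs, searched on both strands, were AGGTCA, the core element that COUP-TFs and many other nuclear receptors bind, ATGCAAAT, the octamer of POU factors, the CCAAT box, ACAAAG, a SOX element, and GCGTGGGCG, an EGR element. No motif contains another, and all but AGGTCA were chosen after values were seen. Windows matched by symbol for 34 of the 42 sphingolipid genes. Only the first window listed for a symbol was used, and any other annotated starts were not searched. AGGTCA was in 2 of these 34 windows (Degs1 and Asah2) and in 0 of the 13 windows of called genes, against 11.3% of 8894 windows of tested genes. The Fa2h window held ATGCAAAT beginning 59 bases before the start, a motif found in 1.19% of windows of tested genes, and CCAAT beginning 120 and 75 bases before the start. CCAAT was in 13 of the 34 windows, against 38.0% of windows of tested genes, Gal3st1 among them on the other strand. The Sgms2 window held ACAAAG, which was in 4 of the 34 windows against 13% of windows of tested genes, and GCGTGGGCG was in 0 of 34 against 1.11%. The Ugt8 window held none of the 5, and its letters were 79.3% G or C, against 74.3% for Fa2h, 74.7% for Gal3st1 and 47.7% for Sgms2. These are matches of letters in a short window and show nothing about binding.

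Fa2h, whose enzyme hydroxylates the fatty acid before it is joined into ceramide and its glycolipids, had 980 and 1373 counts in siRNA libraries A and B, and 166 and 140 counts in control libraries A and B. On the scaled level it was at 37.6 and 31.4 CPM in the siRNA libraries, against 6.42 and 6.56 CPM in the control libraries. Both siRNA libraries lay far above both control libraries, and the mean was 34.5 ± 4.38 CPM in siRNA and 6.49 ± 0.105 CPM in control libraries (SD, n = 2 each). The fold was 5.28 (log2 fold change 2.40, SE 0.14, adjusted p = 6.2e-07), and it ranged from 2.27 to 2.53 on the log2 scale over the alternatives. Fa2h (ENSRNOG00000018950) lies on chromosome 19 from 43545378 to 43596801 on the minus strand in the deposited files, which name no build. In the authors' deposited table its log2 fold change was 2.40.

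Ugt8 encodes the ceramide galactosyltransferase that makes galactosylceramide. It was at 239.5 and 278.8 CPM in the siRNA libraries against 215.7 and 199.0 CPM in the control libraries, so that the groups did not overlap, and siRNA library A lay closer to control library A than to siRNA library B. The log2 fold change was 0.32 (SE 0.09, adjusted p = 0.0218). Gal3st1, whose sulfotransferase turns galactosylceramide into sulfatide, was at 69.9 and 63.7 CPM in siRNA libraries and at 48.9 and 41.0 CPM in control libraries, with no overlap. It rose by 0.57 in log2 units (SE 0.10, adjusted p = 0.00241). Without siRNA library B the log2 fold change of Ugt8 was 0.21 (adjusted p = 0.278) and without control library B it was 0.26 (adjusted p = 0.11), so that its call rests on these libraries.

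Per kilobase Ugt8 was the most abundant of the 3 synthesis genes, at 72.7 ± 7.79 CPM per kilobase in siRNA and 58.2 ± 3.30 in control libraries. Gal3st1 was at 34.5 ± 2.24 CPM per kilobase in siRNA and 23.2 ± 2.85 in control libraries. Fa2h was the least abundant in both groups, at 13.8 ± 1.75 CPM per kilobase in siRNA and 2.59 ± 0.0421 in control libraries (SD, n = 2 each).

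The genes that take these galactolipids apart were also at or above control levels. Galc encodes galactosylceramidase, the enzyme missing in Krabbe disease, and was at 36.4 and 45.5 CPM in siRNA libraries against 29.4 and 31.9 CPM in control libraries. The groups did not overlap, and Galc rose by 0.43 in log2 units (SE 0.12, adjusted p = 0.0238). Without siRNA library B its log2 fold change was 0.25 (adjusted p = 0.315), and without control library A the adjusted p = 0.133. Arsa, the gene of arylsulfatase A, which removes the sulfate from sulfatide, missed the threshold, at 108.8 and 106.4 CPM in siRNA and 101.3 and 104.1 CPM in control libraries (log2 fold change 0.07, SE 0.08, adjusted p = 0.606). Psap, which encodes the precursor of the saposin cofactors, was the most abundant gene of the list per kilobase, at 529.6 ± 15.6 CPM per kilobase in siRNA and 473.0 ± 23.2 in control libraries. Its levels of 1332 and 1388 CPM in siRNA libraries and 1172 and 1257 CPM in control libraries did not overlap, but it missed the threshold (log2 fold change 0.16, SE 0.07, adjusted p = 0.134).

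**Figure D2:**
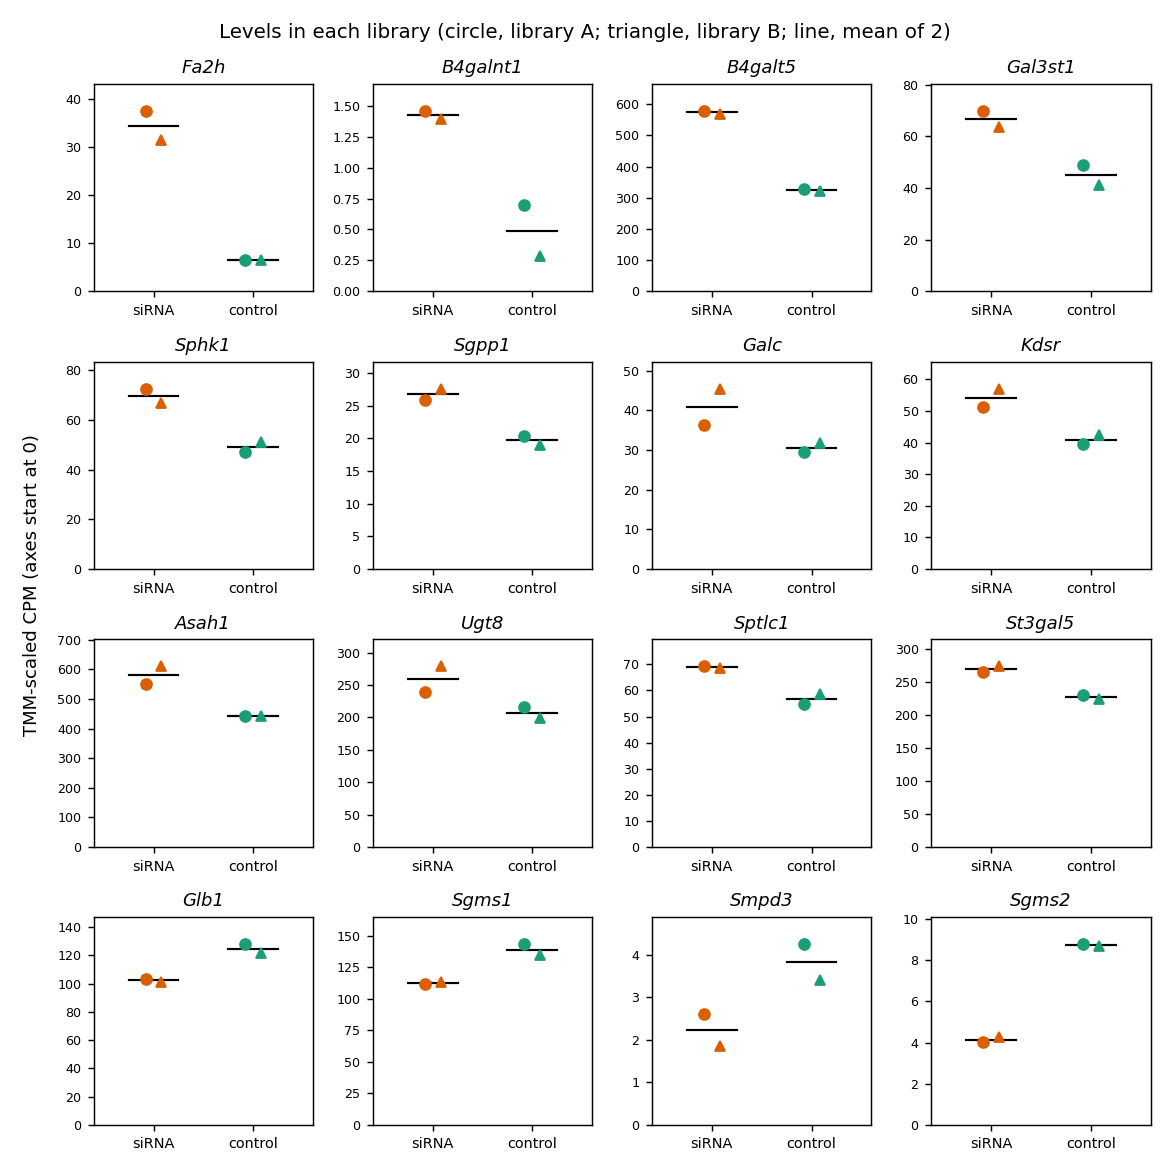
TMM-scaled CPM (vertical axes from 0) of the 16 called genes in siRNA (left) and control (right) libraries, with a circle for library A, a triangle for library B and a line at the mean of 2. The groups of each gene do not overlap, which also holds for 7629 of all 13018 tested genes. Fa2h and Sgms2 are far apart relative to their spread, while B4galnt1 and Smpd3 lie at or below 4.25 CPM.

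Sphingomyelin genes were the 1 group in which more members fell than rose. Of 5 tested, 3 fell and 0 rose, against 10.0% of all tested genes called lower and 8.05% called higher. With an unadjusted p under 0.05 the same number, 3 of 5, passed, against 4087 of all 13018 tested genes. DESeq2 called Sgms1 and Sgms2 but not Smpd3. Sgms2, which encodes the sphingomyelin synthase found at the plasma membrane and Golgi, had 105 and 187 counts in siRNA libraries (A, then B), against 227 and 185 counts in control libraries (A, then B). It was at 4.02 and 4.27 CPM in siRNA against 8.77 and 8.68 CPM in control libraries, with little spread within either group, and its log2 fold change was -1.06 (SE 0.18, adjusted p = 0.00154). Sgms1, the gene of the Golgi sphingomyelin synthase and by far the more abundant paralog, was at 112.2 and 113.5 CPM in siRNA against 143.3 and 134.5 CPM in control libraries. It fell by 0.30 in log2 units (SE 0.08, adjusted p = 0.0181), a call that ended without siRNA library A (adjusted p = 0.0921), siRNA library B (0.0873) or control library A (0.108).

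The sphingomyelinase genes, whose enzymes release ceramide from sphingomyelin, differed in level. Smpd3, the gene of neutral sphingomyelinase of the membrane, was at 2.61 and 1.85 CPM in siRNA and 4.25 and 3.42 CPM in control libraries, so that its log2 fold change came to -0.85 (SE 0.27, adjusted p = 0.0444). The groups did not overlap, but the call rested on few counts and was lost with DESeq2 (adjusted p = 0.143), with upper quartile scaling (0.0524), library size scaling (0.057) and the earlier quasi-likelihood method of edgeR (0.0626). It was also lost without siRNA library B (-0.57, adjusted p = 0.336), control library A (-0.68, adjusted p = 0.278) or control library B (-0.99, adjusted p = 0.0534). Smpd1, encoding the acid sphingomyelinase of lysosomes, was the most abundant of the 3 per kilobase and did not pass the test, at 189.0 and 180.5 CPM in siRNA and 191.8 and 204.6 CPM in control libraries (log2 fold change -0.10, SE 0.08). Smpd2 did not pass either, with a log2 fold change of 0.21 (SE 0.17).

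Of 8 tested genes for glucosylceramide and gangliosides, 3 rose, 1 fell and 4 did not pass, against 18.1% of all tested genes called in either direction. At an unadjusted p under 0.05 it was 7 of 8, against 4087 of all 13018 tested genes, in either direction. B4galt5, whose product is the main lactosylceramide synthase of many mammalian tissues, had the smallest adjusted p among them. It was at 579.0 and 568.9 CPM in the siRNA libraries against 327.9 and 321.9 CPM in the control libraries, a fold of 1.77 (log2 fold change 0.82, SE 0.07, adjusted p = 1.26e-05). The 2 libraries of each group were close together and the groups far apart. Its paralog B4galt6 was at 22.8 and 21.6 CPM in siRNA and 18.7 and 18.6 CPM in control libraries and did not pass (log2 fold change 0.25, SE 0.11, adjusted p = 0.149). B4galt5 made up 98.1% and 98.2% of the length-scaled counts of this pair in siRNA libraries (A, then B), against 97.3% and 97.2% in control libraries (A, then B).

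The step before, from ceramide to glucosylceramide, went the other way in value but not past the test. Ugcg, the gene of glucosylceramide synthase, was at 58.4 and 65.6 CPM in siRNA and 83.1 and 67.6 CPM in control libraries, where siRNA library B lay close to control library B (log2 fold change -0.28, SE 0.11, adjusted p = 0.0926). It was called lower without control library B (-0.43, adjusted p = 0.0146), and it overlaps Susd1 on the other strand. St3gal5, the gene of the sialyltransferase that makes the ganglioside GM3 from lactosylceramide, was at 265.0 and 273.0 CPM in siRNA against 229.6 and 223.3 CPM in control libraries. It rose by 0.25 in log2 units (SE 0.07, adjusted p = 0.0305), and leaving out any 1 library ended this call (adjusted p from 0.0746 to 0.218).

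B4galnt1, whose enzyme adds N-acetylgalactosamine to start the complex gangliosides, rested on 38 and 61 counts in siRNA libraries (A, then B), against 18 and 6 counts in control libraries (A, then B). These were 1.46 and 1.39 CPM in siRNA and 0.696 and 0.281 CPM in control libraries, and the log2 fold change was 1.47 (SE 0.46, adjusted p = 0.0425). The ratio of summed counts, scaled for depth, was 2.79 with an exact Clopper-Pearson 95% interval of 1.77 to 4.55 that covers counting error only. DESeq2 did not call it (adjusted p = 0.124), nor did the fits that left out 1 library (log2 fold change from 1.01 to 2.31, adjusted p from 0.0655 to 0.275). B4galnt1 overlaps Slc26a10 on the other strand by 349 bases, and without a stated strand setting the reads of both cannot be told apart. St8sia1, the gene of the GD3 synthase, had 0 counts.

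Among the lysosomal enzymes that trim gangliosides, Glb1 fell. Glb1, the gene of acid beta-galactosidase, was at 103.5 and 101.0 CPM in siRNA against 127.8 and 121.4 CPM in control libraries (log2 fold change -0.29, SE 0.08, adjusted p = 0.0233). The call ended with library size scaling (adjusted p = 0.0507) and without siRNA library A (0.0809), siRNA library B (0.151) or control library A (0.122). Hexa, the gene of the alpha subunit of beta-hexosaminidase, was at 303.5 and 300.8 CPM in siRNA and 280.2 and 311.8 CPM in control libraries, which overlapped (log2 fold change 0.03, SE 0.08). Neu1, the gene of the lysosomal sialidase, was at 50.3 and 48.1 CPM in siRNA and 39.2 and 41.9 CPM in control libraries and narrowly missed the threshold (log2 fold change 0.28, SE 0.09, adjusted p = 0.0543). It passed in 5 of the 12 alternatives.

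Of 9 tested genes for ceramide breakdown, ceramide phosphorylation and the turnover of sphingosine-1-phosphate, 3 rose and 6 did not pass, against 8.05% of all tested genes called higher. At an unadjusted p under 0.05 it was 5 of 9, against 4087 of all 13018 tested genes, in either direction. Asah1, encoding the acid ceramidase of lysosomes, was at 551.4 and 609.6 CPM in siRNA against 442.5 and 440.7 CPM in control libraries (log2 fold change 0.395, SE 0.07, adjusted p = 0.00311). The groups were well separated, and the call was lost only without siRNA library B (adjusted p = 0.0551). The gene overlaps Pcm1 on the other strand by 116 bases. Asah2 (log2 fold change 0.21, SE 0.23), Acer2 (-0.05, SE 0.42) and Acer3 (-0.15, SE 0.09), which encode the ceramidases that work outside lysosomes, did not pass. Acer2 rested on 20 to 43 counts a library.

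Sphk1, the gene of the cytosolic sphingosine kinase, was at 72.5 and 66.9 CPM in siRNA libraries against 46.9 and 50.9 CPM in control libraries. It rose by 0.51 in log2 units (SE 0.09, adjusted p = 0.00225), and the groups did not overlap. Its paralog Sphk2 was at 67.5 and 63.2 CPM in siRNA and 62.0 and 63.3 CPM in control libraries, which overlapped (log2 fold change 0.06, SE 0.09). Sgpp1, whose phosphatase turns sphingosine-1-phosphate back into sphingosine, was at 25.8 and 27.6 CPM in siRNA against 20.4 and 19.0 CPM in control libraries and rose by 0.44 (SE 0.11, adjusted p = 0.0154). This call was lost without siRNA library B (adjusted p = 0.13) or control library B (0.085). Sgpl1, the gene of the lyase that destroys sphingosine-1-phosphate for good, was at 100.1 and 107.9 CPM in siRNA and 119.6 and 122.2 CPM in control libraries and did not pass (log2 fold change -0.22, SE 0.08, adjusted p = 0.0821). Cerk, the gene of ceramide kinase, did not pass at 223.0 and 221.4 CPM in siRNA and 242.1 and 264.4 CPM in control libraries (log2 fold change -0.19, SE 0.075, adjusted p = 0.108).

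Receptors for sphingosine-1-phosphate were not among the listed genes. S1pr3, the most abundant of them here, was at 232.2 and 237.4 CPM in siRNA against 533.5 and 509.9 CPM in control libraries (log2 fold change -1.15, SE 0.07, adjusted p = 9.03e-07). S1pr2 was at 52.0 and 46.6 CPM in siRNA and 56.5 and 58.3 CPM in control libraries and did not pass (log2 fold change -0.22, SE 0.09, adjusted p = 0.121). S1pr1, S1pr4 and S1pr5 had at most 7 counts in any library.

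For the steps up to ceramide, of 11 tested genes, 2 rose, 0 fell and 9 did not pass, a share of 18.2% against 18.1% of all tested genes. At an unadjusted p under 0.05 the same number, 2 of 11, passed, against 4087 of all 13018 tested genes. DESeq2 called 1 of the 11. Sptlc1, the gene of the subunit that all serine palmitoyltransferase complexes contain, was at 69.2 and 68.5 CPM in siRNA against 54.9 and 58.6 CPM in control libraries (log2 fold change 0.28, SE 0.09, adjusted p = 0.0394). Kdsr, encoding the reductase of the next step, was at 51.2 and 57.1 CPM in siRNA against 39.6 and 42.3 CPM in control libraries (0.41, SE 0.10, adjusted p = 0.0114). Neither gene overlapped between groups. Sptlc1 lost its call with DESeq2 (adjusted p = 0.0538) and when any 1 library was left out (adjusted p from 0.0674 to 0.215), and Kdsr without siRNA library B (0.128) or control library A (0.0793).

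Sptlc2, the gene of the catalytic partner subunit, did not pass (log2 fold change -0.17, SE 0.095), and its level of 55.6 to 64.7 CPM in siRNA libraries lay just below the 65.8 to 69.8 CPM of control libraries. The ORMDL proteins inhibit serine palmitoyltransferase, and none of their genes passed. Ormdl1 had a log2 fold change of 0.23 (SE 0.19), Ormdl2 of 0.08 (SE 0.09) and Ormdl3 of 0.21 (SE 0.10). Degs1, the gene of the desaturase that finishes ceramide, was at 204.4 and 191.0 CPM in siRNA and 181.8 and 178.7 CPM in control libraries and did not pass (0.13, SE 0.075, adjusted p = 0.254).

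Ceramide synthases choose the length of the acyl chain, and none of the 4 tested genes passed. Cers2, whose enzyme makes the very long chain ceramides that myelin lipids carry, was at 174.7 and 172.7 CPM in siRNA and 179.3 and 191.5 CPM in control libraries (log2 fold change -0.09, SE 0.075). The gene overlaps Setdb1 on the other strand by 1120 bases, and the strand setting was not stated. Cers5, whose enzyme prefers shorter chains, was at 208.3 and 222.5 CPM in siRNA and 207.9 and 229.7 CPM in control libraries (-0.02, SE 0.08). Cers4 had a log2 fold change of 0.015 (SE 0.08) and Cers6, at 3.37 CPM or less, of 0.05 (SE 0.26). The mix of these 4 genes by length-scaled counts was much the same in both groups, with Cers5 at 47.4% and 49.3% in siRNA libraries (A, then B), against 46.9% and 48.3% in control libraries (A, then B). Cers2 held 39.1% and 37.6% in siRNA libraries and 39.8% and 39.6% in control libraries.

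**Figure D3:**
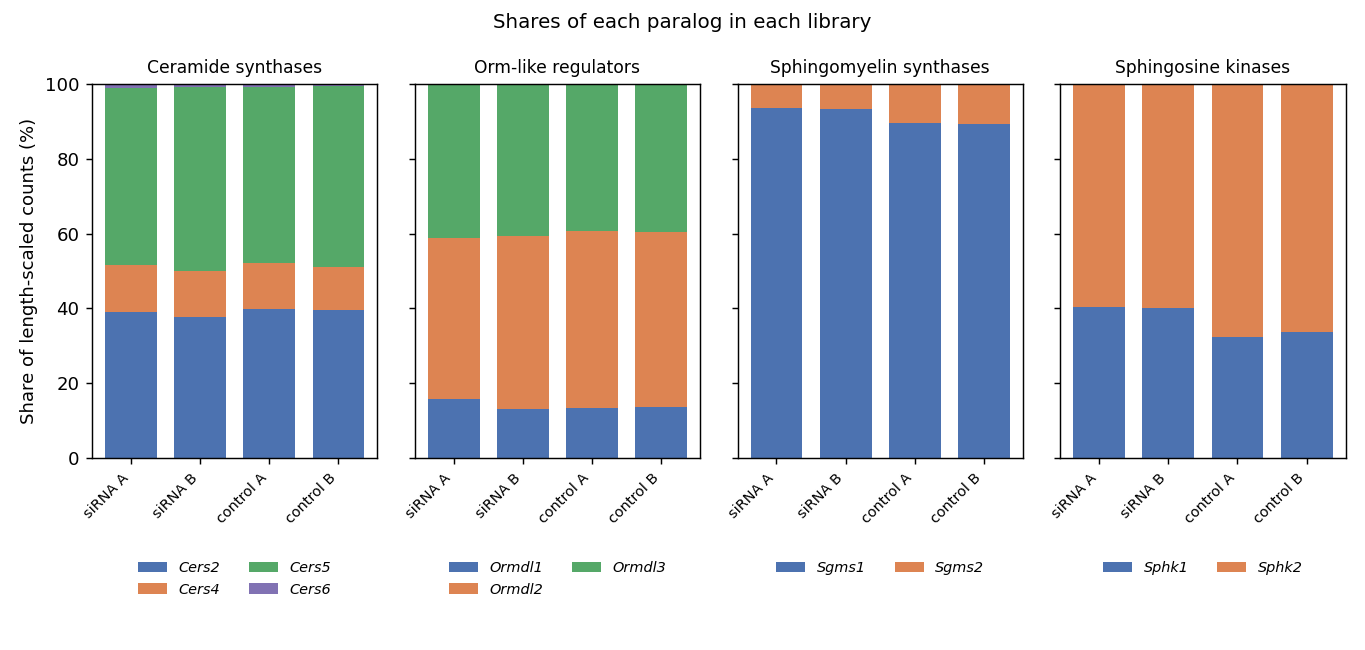
Share of each paralog in the length-scaled counts of its family (vertical axis, percent) in each library, siRNA libraries on the left and control libraries on the right of each panel. Sphk1 holds 40.4% and 40% of the sphingosine kinase counts in siRNA libraries against 32.3% and 33.7% in control libraries, and Sgms2 6.38% and 6.67% of the sphingomyelin synthase counts against 10.4% and 10.9%, while the ceramide synthase mix hardly differs.

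Summed over each role and scaled for length, the sphingomyelin genes were at 121.7 and 117.4 CPM per kilobase in siRNA libraries (A, then B), against 133.3 and 135.7 in control libraries (A, then B). The glucosylceramide and ganglioside genes summed to 535.7 and 533.7 CPM per kilobase in siRNA against 436.6 and 444.6 in control libraries, where B4galt5 gives most of the difference. The galactolipid genes summed to 681.8 and 712.2 in siRNA against 584.9 and 610.9 in control libraries, of which Psap is the largest part. The ceramide synthesis genes summed to 499.9 and 503.9 in siRNA and 471.8 and 484.7 in control libraries. The genes of ceramide breakdown and sphingosine-1-phosphate summed to 359.9 and 382.8 in siRNA and 319.5 and 324.1 in control libraries. These sums are descriptions without a test, and the most abundant genes set them.

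The sphingolipid hydrolases and cofactors that work in lysosomes were compared with Lamp1, which encodes a main protein of the lysosomal membrane. Lamp1 was at 304.5 and 307.2 CPM in siRNA against 1144 and 1224 CPM in control libraries (log2 fold change -1.95, SE 0.07, adjusted p = 1.35e-08). Of the 8 lysosomal genes Galc, Arsa, Psap, Smpd1, Glb1, Hexa, Neu1 and Asah1, a grouping made after values were seen, 2 rose, 1 fell and 5 did not pass, against 18.1% of all tested genes called. Their log2 fold changes ran from -0.29 to 0.43, with a median of 0.12, and none was near that of Lamp1.

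Other genes of sphingolipid metabolism came from a list of 54 symbols. Of these, 50 were in the table and 34 were tested, and 3 rose, 2 fell and 29 did not pass, which is 14.7% against 18.1% of all tested genes. Gltp, the gene of a cytosolic glycolipid transfer protein, was at 88.2 and 82.9 CPM in siRNA against 137.6 and 132.2 CPM in control libraries (log2 fold change -0.66, SE 0.08, adjusted p = 0.000165). Gm2a, encoding the activator that presents ganglioside GM2 to beta-hexosaminidase, fell by 0.41 in log2 units (SE 0.07, adjusted p = 0.00154). Sumf1, whose enzyme activates sulfatases such as arylsulfatase A, was at 119.8 and 125.3 CPM in siRNA against 83.6 and 90.6 CPM in control libraries and rose by 0.49 (SE 0.08, adjusted p = 0.00141). These 3 kept their calls in all 12 alternatives. The ganglioside sialyltransferase gene St3gal2 rose by 0.31 in log2 units (SE 0.08, adjusted p = 0.0169) and overlaps Ddx19a on the other strand. It was not called without siRNA library A (adjusted p = 0.0871), siRNA library B (0.0744) or control library B (0.112). The very long chain fatty acid elongase gene Elovl1 was at 139.4 and 138.1 CPM in siRNA and 143.9 and 145.0 CPM in control libraries and did not pass (log2 fold change -0.06, SE 0.07).

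**Figure D4:**
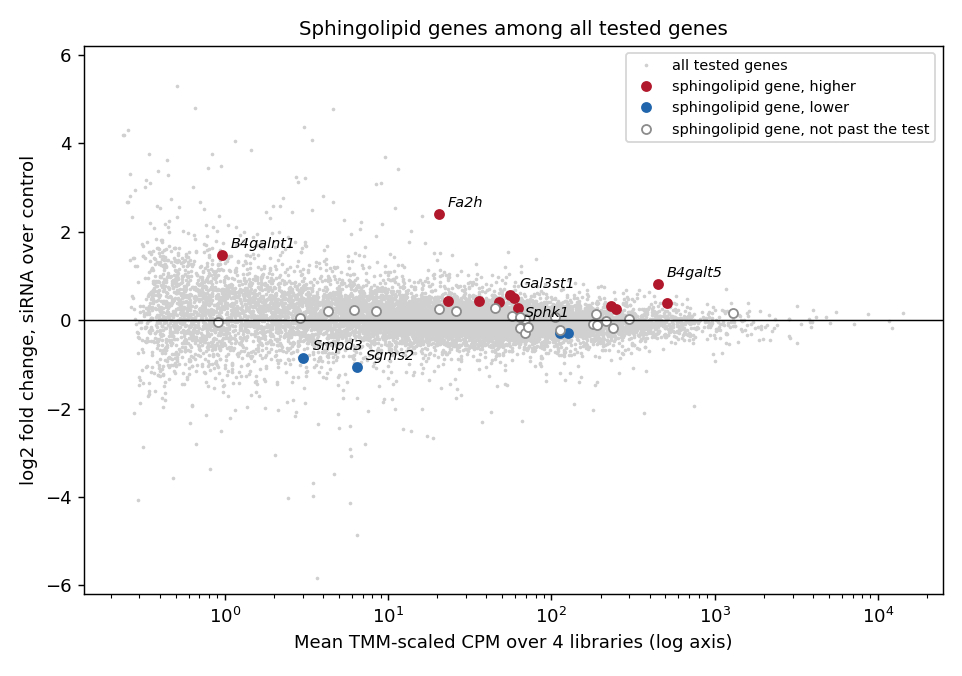
Log2 fold change, siRNA over control (vertical axis), against mean TMM-scaled CPM on a log axis for all 13018 tested genes (grey) with the 39 sphingolipid genes on top (red higher, blue lower, open not past the test). Fa2h, B4galnt1 and B4galt5 stand at 2.40, 1.47 and 0.82, and Sgms2 and Smpd3 at -1.06 and -0.85, while most sphingolipid genes lie close to 0.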

How the data were processed

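Polyadenylated RNA of S16 cells was measured in 4 libraries, 2 a group by the labels. The authors deposited raw read counts, whole numbers for each Ensembl gene; the submitters' processing notes name HISAT2, featureCounts 1.5.0-p3 and DESeq2 1.20.0 without their roles. Genome build, annotation and strand setting were not given in the sources used here. Gene lengths are another deposited column. The log2 fold changes and p-values of the authors' deposited table were read as given; 12 further columns of values per library in it were not used. Column names give the group but match no replicate title.

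Counts were analysed with edgeR 4.0.16 in R 4.3.3: filterByExpr (13018 genes), TMM factors (1.02 in either siRNA library, 0.975 and 0.990 in control libraries), and a robust quasi-likelihood fit with group as the only term (legacy = FALSE). The biological coefficient of variation was 0.111. SEs come from the F statistic. The code was tested on simulated data. Genes named are all listed sphingolipid genes, the called genes of the pathway list, except for items not reported here, and the context genes; Elovl1 was added after its values were seen. The genes and lists were chosen with earlier results of these data known. Alternatives were 3 scalings, 2 filters, DESeq2 1.42.0, limma-voom (limma 3.58.1), each library left out, and, added after seeing the data, edgeR's earlier quasi-likelihood method. No fit was made for a technical batch, since the labels name none. Motif matches and lists were described without tests.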

Additional observations from a re-analysis of the deposited data

How the results depend on the processing

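Over 12 alternatives, 5 of the 16 called sphingolipid genes kept their call throughout and 11 lost it at least once, mostly when a library was left out; 2 of the 23 others (Neu1 and Ugcg) were called in some. No call reversed. With one library left out, the sphingolipid genes called higher ranged from 4 to 9 and those called lower from 1 to 4, the pathway list genes called higher from 1 to 4, and all genes called higher from 602 to 766 and lower from 751 to 1086. In those fits the lone library of a group is assumed to vary like the others, and fewer libraries enter; no other cause was tested. With library size scaling 2 sphingolipid genes were lower in place of 4; under it the median over all genes shifted up by 0.052 (log2). Length scaling moved the share of Cers4 from 15.0% of raw counts to 12.4% in siRNA and from 14.5% to 11.9% in control libraries. No paired analysis was possible because the count columns carry numbers that match no replicate title and share only 1 number between the groups. Genes under about 5 CPM, such as B4galnt1, Smpd3, Cers6 and Acer2, rest on few counts.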

Other observations

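Ratios within a library need no scaling between libraries. The log2 ratio of Sphk1 to Sgpl1, the genes of a kinase that makes and a lyase that destroys sphingosine-1-phosphate, was -0.47 and -0.69 in siRNA libraries (A, then B), against -1.35 and -1.26 in control libraries (A, then B). That of Sgms1 to Sgms2 was 4.80 and 4.73 in siRNA and 4.03 and 3.95 in control libraries. That of Fa2h to Ugt8 was -2.67 and -3.15 in siRNA and -5.07 and -4.92 in control libraries. That of Gal3st1 to Arsa was -0.64 and -0.74 in siRNA and -1.05 and -1.34 in control libraries. The ratios are not scaled for gene length, so each is to be read only between libraries. In none of these 4 ratios, chosen after values were seen, did the groups overlap, and they were not tested. Each ratio holds at least 1 gene called here. Among single genes, the groups did not overlap in 7629 of 13018 tested.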
